A study of Mus musculus with 26 samples.

Results

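The genes described here encode subunits of respiratory complexes II, III, IV and V. They were chosen by symbol: protein-coding genes named Sdha, Sdhb, Sdhc, Sdhd or Cyc1, or with a symbol that starts with Uqcr, Cox4 to Cox8 or Atp5. Of the 45318 genes counted, 21578 were protein-coding and 48 were members, with 4 in complex II, 9 in complex III, 18 in complex IV and 17 in complex V. Of the 48 members, 43 passed the filter on low counts and were tested. The 5 that did not pass were the tissue-specific complex IV genes Cox4i2, Cox6b2, Cox7b2, Cox8b and Cox8c. The symbols were also checked against what the genes are known to do. Atp5s, a coupling factor, is not a subunit of ATP synthase, and Cox7a2l is a relative of the subunit 7A genes that acts in joining complexes into supercomplexes. The genes for subunits that carry other symbols, such as Usmg5, were not members.

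The libraries were made from polyA RNA of 4T1 cells, an established mammary tumor line from a BALB/c mouse. Control cells (n = 2 libraries) had received a guide RNA against Renilla luciferase and were labelled wild type. KO1 (n = 3) and KO2 (n = 4) were MaTAR25-/- cells, in which CRISPR/Cas9 and a pair of guides deleted the start site of MaTAR25, a nuclear long non-coding RNA. Each KO group was a single sorted clone, so that the loss of MaTAR25 and other differences of a clone cannot be told apart. By the study's methods, control cells were also grown from single sorted cells, and the labels do not name the control clone. A trait of the control cells would appear in both KO comparisons and cannot be told apart from the loss of MaTAR25. The labels do not say whether the libraries of a group came from separate cultures. The p-values therefore measure the spread between these libraries, which may be technical.

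Complex II passes electrons from succinate to ubiquinone, complex III passes them on to cytochrome c, and complex IV, cytochrome c oxidase, hands them to oxygen. Complexes III and IV pump protons across the inner mitochondrial membrane, and complex V, the ATP synthase, uses the returning protons to make ATP. Most subunits are encoded in the nucleus and a few in mitochondrial DNA. Several complex IV subunits exist in a common form and a form restricted to muscle, testis or lung, and the nuclear genes as a group are known targets of the transcription factors NRF1 and NRF2 (GABP, an ETS factor).

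The promoters of 4 members are shown because they carry, or lack, those motifs: Atp5k and Uqcr11 had the largest increases of their complexes, and Cox6a1 and Cox7a1 are a common and a muscle form. Each sequence runs 5′ to 3′ on the gene's strand from 250 bases before to 50 bases after the RefSeq gene start (GRCm38.p6), and capitals mark matches on either strand to the NRF1 motif (GCGC, any base, then TGCGC) or to the ETS motif CCGGAAG. The Atp5k promoter (chr5:108434350-108434649, minus strand) holds an NRF1 and an ETS match. Uqcr11 (chr10:80406772-80407071, minus strand) holds an ETS match. Cox6a1 (chr5:115348909-115349208, minus strand) holds 2 NRF1 matches and an ETS match. Cox7a1 (chr7:30183921-30184220, plus strand) holds neither in this window.
Atp5k: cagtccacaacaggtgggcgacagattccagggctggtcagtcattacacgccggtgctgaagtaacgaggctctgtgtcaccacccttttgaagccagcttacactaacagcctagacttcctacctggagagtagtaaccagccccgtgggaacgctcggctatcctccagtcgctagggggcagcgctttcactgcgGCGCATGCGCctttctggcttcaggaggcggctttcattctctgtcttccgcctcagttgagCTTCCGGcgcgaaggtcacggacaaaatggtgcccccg
Uqcr11: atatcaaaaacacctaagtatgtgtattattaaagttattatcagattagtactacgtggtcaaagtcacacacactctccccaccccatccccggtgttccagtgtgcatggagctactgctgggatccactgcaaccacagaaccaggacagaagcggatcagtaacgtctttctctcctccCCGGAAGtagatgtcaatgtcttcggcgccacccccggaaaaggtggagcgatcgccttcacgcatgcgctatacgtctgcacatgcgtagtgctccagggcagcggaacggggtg
Cox6a1: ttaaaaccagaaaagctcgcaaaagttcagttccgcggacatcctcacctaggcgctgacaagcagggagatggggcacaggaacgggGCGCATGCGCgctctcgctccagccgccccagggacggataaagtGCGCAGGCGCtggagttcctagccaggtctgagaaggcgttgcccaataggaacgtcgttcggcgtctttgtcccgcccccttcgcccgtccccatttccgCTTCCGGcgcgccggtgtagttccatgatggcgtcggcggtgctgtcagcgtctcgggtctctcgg
Cox7a1: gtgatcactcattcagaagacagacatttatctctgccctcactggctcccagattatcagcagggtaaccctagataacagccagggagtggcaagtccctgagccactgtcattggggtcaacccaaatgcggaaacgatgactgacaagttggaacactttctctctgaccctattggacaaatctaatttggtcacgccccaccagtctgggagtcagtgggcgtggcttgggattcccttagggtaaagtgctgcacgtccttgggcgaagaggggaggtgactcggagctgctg

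The libraries held 25367211 to 61110585 reads counted to genes. For MaTAR25 itself (1200007C13Rik), control replicates 1 and 2 gave 35 and 30 counts, the KO1 libraries gave 2, 7 and 0, and the KO2 libraries gave 11, 1, 9 and 6. All KO libraries were below both controls, and the fitted log2 difference was -3.39 in KO1 (SE 0.98, adjusted p = 0.0341) and -2.26 in KO2 (SE 0.83, adjusted p = 0.0785). In KO2 replicate 3, genes of chromosome 9 were low: its 5 members had a median of -0.36 on the log2 scale from the mean of KO2, and 843 other genes of that chromosome had -0.34. In all, 7 chromosome medians of other genes lay beyond 0.2 in KO2 libraries and 0 in control or KO1. Among them were chromosome 11 in KO2 replicate 3 (0.27 over 1243 genes, and 0.50 for its 4 members) and chromosome 13 in KO2 replicate 4 (0.30 over 523 genes, and 0.28 for its 4 members). The 7 epithelial markers summed to 3435 to 3558 CPM (counts scaled to a common library size) in control, 3177 to 4434 in KO1 and 1687 to 3292 in KO2, and 1 passed the test upward in KO1 (Krt8) and 1 downward in KO2 (Cdh1). Leukocyte markers (6 genes) summed to at most 29.4 CPM in any library, with Cd68 called higher in KO1. Of the 3 tested, 1 had a log2 fold change above 0 in KO1 (median -0.04) and 2 in KO2 (median 0.96). Csf1r was at 5.44 and 4.94 CPM in control and 2.85, 0.93 and 0.95 in KO1. In KO2 it was at 1.20, 3.62, 8.64 and 1.74 CPM. Fibroblast markers (6 genes) summed to at most 47.0 CPM, with Col1a2 called higher in KO1 and Dcn, Lum and Thy1 at 0 in every library.

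Most members were higher in both clones than in control. In KO1, 30 of the 43 members tested were called higher (69.8%, against 15.9% of all 15023 genes tested) and 0 were called lower (against 15.7%), where 31.6% of all genes were called in either direction. In KO2, 25 were called higher (58.1%, against 16.5% of all genes) and 2 lower, Cox6a2 and Atp5s (4.65%, against 15.0%), where 31.4% of all genes were called in either direction. A call means an adjusted p under 0.1 by the quasi-likelihood test of edgeR, adjusted by Benjamini-Hochberg over all genes. The median log2 fold change of the members was 0.82 in KO1 and 0.56 in KO2, where the medians of all genes tested were 0.02 and 0.03. Both clones were set against the same 2 control libraries. In a bulk library, more RNA of these genes per cell and more cells that carry much of it cannot be told apart.

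The shift was present in each KO library. Summed over the 48 members, the level was 6403 ± 134 CPM in control (SD, n = 2), 10346 ± 787 in KO1 (n = 3) and 9627 ± 1030 in KO2 (n = 4), and the lowest KO library, at 8607 CPM, stood above the higher control, at 6498. The median member was 0.66, 0.65 and 0.84 above the control mean in the KO1 libraries and 0.49, 0.63, 0.71 and 0.50 above it in the KO2 libraries, on the log2(CPM + 1) scale. In KO1, every library was above both controls for 35 of 43 members (all genes: 33.2%) and below both for 3 (all genes: 33.7%). In KO2 these counts were 30 (all genes: 22.8%) and 3 (all genes: 24.1%). The calls rested on both control libraries: 10 members were called higher in KO1 without control replicate 1 and 13 without control replicate 2, and in KO2 the counts were 9 and 12. With a lone control, 9.46% and 11.1% of all genes were called in KO1, and 8.72% and 9.15% in KO2.

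**Figure D1:**
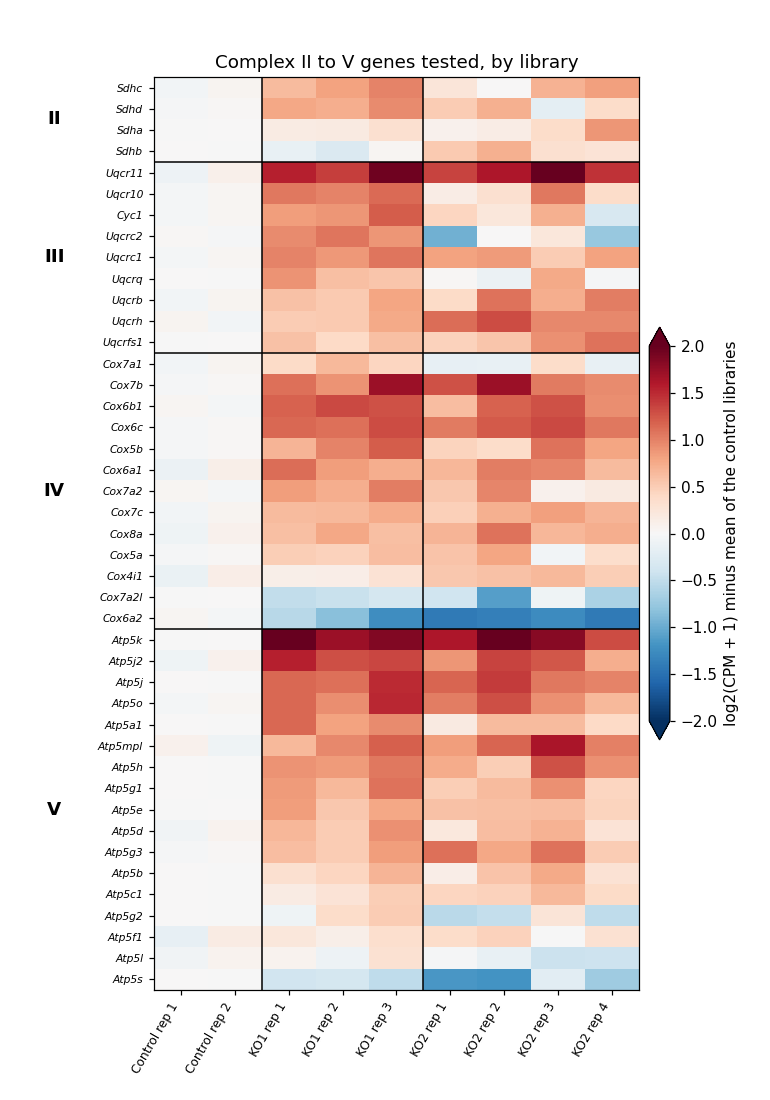
Heat map of the 43 members tested, grouped by complex, in the 9 libraries; colour gives log2(CPM + 1) minus the mean of the 2 control libraries. Red fills most rows of KO1 and KO2, the median member being 0.66, 0.65 and 0.84 above the control mean in the KO1 libraries, and Cox6a2, Cox7a2l and Atp5s are blue.

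Gene length moved with the same contrast. Among coding genes that are not members, those with up to 1000 bp of exons had a median log2 fold change of 0.32 in KO1 and 0.37 in KO2 (258 genes), and those over 4000 bp had -0.07 and -0.04 (7047 genes). By the same length of all exons, 10 of the 43 members tested had up to 1000 bp, with medians of 0.99 in KO1 and 0.82 in KO2. The 16 members of 1000 to 2000 bp had 0.70 and 0.63, the 11 of 2000 to 4000 bp had 0.97 and 0.47, and the 6 over 4000 bp had 0.36 and 0.44. With the fold changes centred on the length trend of all genes, the members' medians were 0.64 in KO1 and 0.43 in KO2.

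By complex, the counts can be read against the 15.9% of all genes called higher in KO1 and the 16.5% in KO2. In KO1, 2 of 4 members of complex II, 9 of 9 of complex III, 8 of 13 tested of complex IV and 11 of 17 of complex V were called higher, with median log2 fold changes of 0.53, 0.98, 0.87 and 0.73. In KO2 the counts were 1, 5, 8 and 11, and the medians were 0.44, 0.75, 0.69 and 0.57. The 1 of 4 called in complex II in KO2 is near the share over all genes. The median was lowest in complex II in both clones, and the order of the other complexes in KO2 changed with the fit. The differences between complexes were not tested. Per complex, the summed level in control was 521 ± 7.15 CPM for complex II, 745 ± 12.7 for complex III, 1294 ± 77.3 for complex IV and 3843 ± 36.6 for complex V (SD, n = 2). In KO1 (SD, n = 3) it was 683 ± 58.8, 1404 ± 76.2, 2105 ± 106 and 6154 ± 552, and in KO2 (SD, n = 4) 705 ± 72.4, 1132 ± 107, 2135 ± 194 and 5656 ± 804. For each complex, every KO library was above both control libraries.

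**Figure D2:**
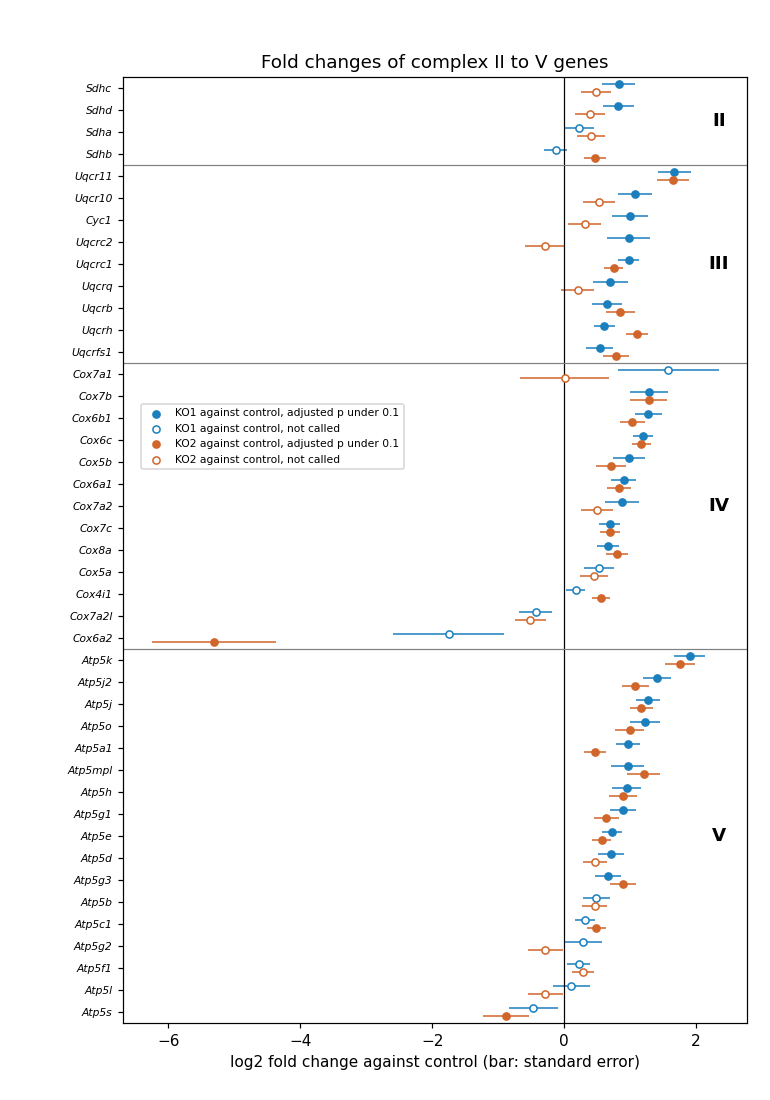
Log2 fold change of each tested member in KO1 (blue, n = 3) and KO2 (orange, n = 4) against control (n = 2), by complex, with bars for the standard error and filled points for an adjusted p under 0.1. The points lie to the right of 0 for 39 members in KO1 and 37 in KO2, with Atp5k farthest right and Cox6a2 farthest left.

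In complex II, the membrane anchors were called higher in KO1 and the iron-sulfur subunit in KO2. Set against each other, KO2 and KO1 differed by a call in Sdhb (0.60) and in neither anchor (Sdhc -0.34, Sdhd -0.43). Sdhc, an anchor that binds heme and ubiquinone (chr1:171127165-171150603), was at 79.9 and 85.8 CPM in control, 129, 145 and 166 in KO1, and 98.2, 83.4, 134 and 146 in KO2. The KO1 libraries lay above the controls and the KO2 libraries overlapped them, and the log2 fold change was 0.83 in KO1 (SE 0.25, adjusted p = 0.0382) and 0.48 in KO2 (SE 0.23, adjusted p = 0.163). Sdhd, the other anchor (chr9:50596357-50603812), was at 97.4 and 102 CPM in control, 170, 165 and 193 in KO1, and 142, 164, 86.9 and 128 in KO2. It rose in KO1 (0.82, SE 0.24, adjusted p = 0.0352), and in KO2 only replicate 3, the library with low chromosome 9, was below the controls (0.39, SE 0.22, adjusted p = 0.239). Without KO2 replicate 3 the value was 0.54 (adjusted p = 0.0294). Sdhb, the iron-sulfur subunit (chr4:140961203-140979193), was at 145 and 144 CPM in control and 130, 119 and 148 in KO1, which overlapped. In KO2 it was at 209, 239, 180 and 175 CPM, above every control and KO1 library, and it rose (0.47, SE 0.17, adjusted p = 0.0703). Sdha, the flavoprotein that oxidizes succinate, was not called, at 0.23 in KO1 and 0.41 in KO2. The calls of Sdhc and Sdhd in KO1 were lost without either control library (0.79 to 0.89 and 0.81 to 0.86), that of Sdhc also without KO1 replicate 3 (0.73), and that of Sdhb in KO2 without either control or without KO2 replicate 1 (0.45 to 0.49).

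In complex III, all 9 members were called higher in KO1 (all genes: 15.9%). Uqcr11, a small subunit (chr10:80402997-80406830), showed the largest change of the complex in both clones. It was at 30.1 and 34.4 CPM in control, 96.2, 85.4 and 126 in KO1, and 83.6, 101, 131 and 89.3 in KO2. Every KO library was above both controls, with a log2 fold change of 1.67 in KO1 (SE 0.25, adjusted p = 0.00248) and 1.65 in KO2 (SE 0.24, adjusted p = 0.00239). The hinge protein gene Uqcrh (chr4:116066965-116075071) was at 61.2 and 56.7 CPM in control, 84.4, 85.1 and 101 in KO1, and 128, 148, 116 and 116 in KO2. The 3 groups did not overlap, and Uqcrh rose in KO1 (0.61, SE 0.17, adjusted p = 0.0274) and in KO2 (1.11, SE 0.16, adjusted p = 0.00248). Uqcrfs1, the Rieske iron-sulfur protein (chr13:30540308-30545362), had the smallest change of the complex in KO1. Its levels were 84.3 and 85.5 CPM in control, 128, 112 and 130 in KO1, and 117, 125, 161 and 181 in KO2 (0.54, SE 0.20, adjusted p = 0.0842, and 0.78, SE 0.20, adjusted p = 0.0202).

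The core and catalytic subunits of complex III included Uqcrc2, the member with the smallest adjusted p between the clones. Uqcrc2, a core protein (chr7:120635176-120659524), was at 125 and 121 CPM in control, 239, 260 and 228 in KO1, and 62.6, 123, 144 and 72.7 in KO2. KO1 lay above all other libraries and KO2 spread on both sides of the controls, with a log2 fold change of 0.98 in KO1 (SE 0.33, adjusted p = 0.0575) and -0.29 in KO2 (SE 0.30, adjusted p = 0.509). Its partner Uqcrc1, the other core protein, was called higher in both clones (0.98 and 0.75). Cyc1, the cytochrome c1 that passes electrons to cytochrome c (chr15:76343523-76346260), was at 84.8 and 89.8 CPM in control, 156, 161 and 203 in KO1, and 118, 102, 143 and 69.6 in KO2. It rose in KO1 (0.99, SE 0.27, adjusted p = 0.0289), and in KO2 replicate 4 was below the controls and the other 3 libraries above them (0.31, SE 0.25, adjusted p = 0.404). The small subunits Uqcr10, Uqcrb and Uqcrq had values of 1.07, 0.65 and 0.70 in KO1, all called, and 0.53, 0.85 and 0.21 in KO2, where Uqcrb was called. Without control replicate 1 or control replicate 2, the KO1 calls of Uqcrc2 (1.01 and 0.97), Cyc1 (0.97 and 1.04), Uqcrfs1 (0.54 and 0.56) and Uqcrh (0.68 and 0.57) were lost, and so was the KO2 call of Uqcrfs1 (0.79 and 0.80). Those of Uqcrc2 and Uqcrfs1 in KO1 were also lost without any one of the KO1 libraries (0.93 to 1.02 and 0.50 to 0.60).

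In complex IV, the common forms of the subunits carried nearly all counts and most of them rose. Cox4i1 encodes the common form of subunit 4 (chr8:120668222-120674207). Its levels were 280 and 335 CPM in control, 331, 336 and 375 in KO1, and 444, 462, 481 and 432 in KO2. KO1 overlapped the controls (0.17, SE 0.14, adjusted p = 0.399), and KO2 lay above both other groups (0.56, SE 0.14, adjusted p = 0.0176). Cox6a1, the common subunit 6A (chr5:115345642-115348981), was at 148 and 173 CPM in control, 348, 285 and 264 in KO1, and 253, 326, 314 and 247 in KO2. It rose in KO1 (0.90, SE 0.19, adjusted p = 0.0103) and in KO2 (0.83, SE 0.18, adjusted p = 0.0123). Cox6b1, the common subunit 6B, faces the intermembrane space (chr7:30616861-30626151). It was at 62.1 and 58.4 CPM in control, 137, 153 and 147 in KO1, and 93.2, 138, 147 and 116 in KO2, and it rose by 1.27 (SE 0.20, adjusted p = 0.00334) and 1.04 (SE 0.19, adjusted p = 0.00642). Without control replicate 1, Cox4i1 in KO2 (0.45) and Cox6a1 in KO1 (0.81) and KO2 (0.74) lost the call, and Cox6b1 kept both calls when any one of the 9 libraries was left out.

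The common subunits 7A, 7B and 8 also rose in KO1. Cox7a2, the common subunit 7A (chr9:79755361-79759878), was at 87.3 and 83.2 CPM in control, 153, 141 and 175 in KO1, and 125, 168, 90.9 and 96.6 in KO2. All KO libraries were above the controls (KO1: 0.87, SE 0.26, adjusted p = 0.0369; KO2: 0.49, SE 0.24, adjusted p = 0.17), and without KO2 replicate 3 the KO2 value was 0.61 (adjusted p = 0.0771). Cox7b, the common subunit 7B (chrX:106015700-106022450), was at 72.9 and 75.8 CPM in control, 160, 140 and 245 in KO1, and 180, 246, 153 and 145 in KO2. It had the largest increase among the called members of complex IV in both clones (1.29, SE 0.29, adjusted p = 0.0133, and 1.28, SE 0.28, adjusted p = 0.0121). Cox8a, the common subunit 8 (chr19:7215153-7217616), was at 201 and 224 CPM in control, 320, 364 and 324 in KO1, and 339, 451, 335 and 353 in KO2, with values of 0.66 (SE 0.17, adjusted p = 0.0215) and 0.80 (SE 0.16, adjusted p = 0.00919). Without control replicate 1, all of these calls were lost (Cox7a2 0.92 and Cox7b 1.28 in KO1, Cox7b 1.27 in KO2, Cox8a 0.60 and 0.74). Without control replicate 2, those of Cox7a2 (0.85) and Cox8a (0.75) in KO1 and Cox7b in KO2 (1.32) were lost, and Cox7a2 in KO1 was also lost without KO1 replicate 3 (0.79). Of the subunits with a single form, Cox5b, Cox6c and Cox7c were called higher in both clones, and Cox5a in neither (0.53 and 0.46). Cox7a2l was lower in every KO library, at 43.8 to 90.0 CPM against 95.2 and 95.6 in control, and was not called (-0.43, adjusted p = 0.243, and -0.51, adjusted p = 0.147).

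Of the tissue-specific forms, Cox6a2 and Cox7a1 passed the filter on low counts. Cox6a2 encodes the subunit 6A of heart and skeletal muscle (chr7:128205435-128206387). It had 79 and 53 counts in control, 52, 15 and 5 in KO1, and 0, 1, 5 and 0 in KO2, or 1.73 and 1.62 CPM, 0.8286, 0.498 and 0.135 CPM, and 0, 0.0421, 0.113 and 0 CPM. The 3 groups did not overlap in CPM. Its log2 fold change was -1.75 in KO1 (SE 0.84, adjusted p = 0.16) and -5.31 in KO2 (SE 0.94, adjusted p = 0.00523), where it rests on 6 counts over 4 libraries and ranged from -7.05 to -4.83 as libraries were left out, with the call kept in each. Its share of the subunit 6A genes, by counts per kb, was 0.878% ± 0.138 in control (SD, n = 2), 0.130% ± 0.0795 in KO1 (n = 3) and 0.0103% ± 0.0143 in KO2 (n = 4). Cox7a1, the muscle form of subunit 7A (chr7:30184144-30186078), had 9 and 10 counts in control, 39, 29 and 25 in KO1, and 4, 3, 27 and 6 in KO2. KO1 lay above the controls, and KO2 replicate 3 stood with KO1 (KO1: 1.58, SE 0.76, adjusted p = 0.164; KO2: 0.01, SE 0.68, adjusted p = 0.997). Its share of the subunit 7A genes was 0.495% ± 0.165 in control, 0.818% ± 0.271 in KO1 and 0.400% ± 0.477 in KO2.

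The other restricted forms had at most 7 counts in a library. Cox4i2, known from lung, had 5 and 3 counts in control, 7, 1 and 4 in KO1, and 6, 1, 2 and 3 in KO2. Cox6b2, known from testis, had 2 and 0, then 0, 0 and 0, then 1, 0, 0 and 2 counts, and Cox8b, of muscle and brown fat, had 0 and 0, then 1, 1 and 1, then 2, 0, 1 and 2. Cox7b2 and Cox8c, both known from testis, had 0 counts in all 9 libraries, which allows up to 3 counts in each, or 0.0491 to 0.118 CPM of all gene counts. Counting error alone is covered by these limits. Of 13 muscle markers, 4 were tested. Mylpf was called higher in both clones, Myh1 higher in KO2 and Tnnt2 lower in both, and Myh6 was at 0 in every library. The muscle markers summed to 250.04 to 271 CPM in control, 55.8 to 116 in KO1 and 48.3 to 147 in KO2, nearly all of it Tnnt2. Without Tnnt2 they summed to 0.885 to 0.988, 2.25 to 3.45 and 0.926 to 7.51 CPM, and their part in the Cox6a2 and Cox7a1 values was not tested. The 8 germ cell markers summed to at most 0.519 CPM in any library, none was tested, and Dazl and Tnp1 were at 0.

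**Figure D3:**
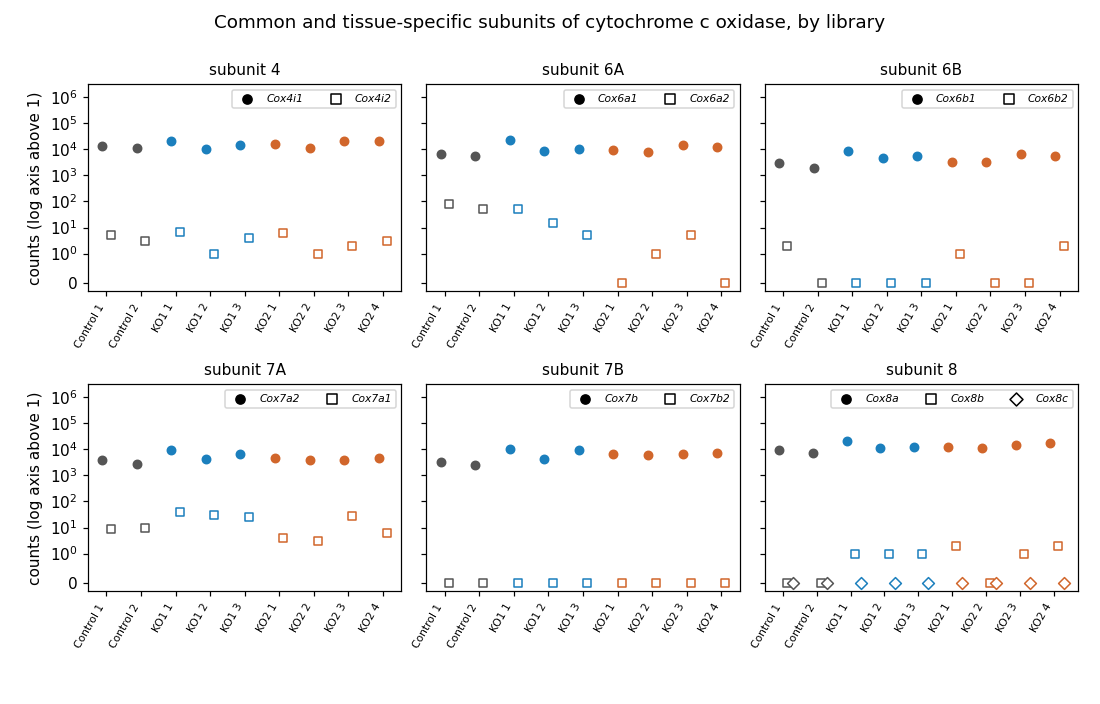
Counts of the common (filled) and tissue-specific (open) forms of 6 complex IV subunits in the 9 libraries, on a log axis above 1 and linear below, not scaled for depth. The common forms lie far above in every library, at 1913 counts or more, and of the restricted forms only Cox6a2 and Cox7a1 exceed 7 counts.

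In complex V, 11 of 17 members were called higher in each clone (all genes: 15.9% in KO1 and 16.5% in KO2), among them members of the F1 part, the stalks and the membrane part. Atp5k, a small membrane subunit of the dimer interface (chr5:108433244-108434448), had the largest increase of all 43 members. It was at 39.2 and 39.4 CPM in control, 166, 131 and 145 in KO1, and 123, 169, 141 and 98.8 in KO2. The lowest KO library was thus well above both controls, and the log2 fold change was 1.91 in KO1 (SE 0.23, adjusted p = 0.00113) and 1.76 in KO2 (SE 0.22, adjusted p = 0.00154). Atp5mpl and Atp5j2, also membrane subunits, were called higher in both clones (0.96 and 1.41 in KO1, 1.20 and 1.08 in KO2), and Atp5l was called in neither (0.11 and -0.28). Atp5a1, the alpha subunit of the F1 head (chr18:77773729-77782869), was at 647 and 643 CPM in control, 1425, 1121 and 1246 in KO1, and 729, 999, 1002 and 846 in KO2. The groups did not overlap, and it rose in KO1 (0.97, SE 0.18, adjusted p = 0.00637) and in KO2 (0.47, SE 0.17, adjusted p = 0.0739). The KO2 call was lost without control replicate 1 (0.49), control replicate 2 (0.47), KO1 replicate 3 (0.47), KO2 replicate 2 (0.41) or KO2 replicate 3 (0.41).

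Most stalk subunits rose in at least 1 clone. Of the peripheral stalk, which holds the F1 head still, Atp5h, Atp5j and Atp5o were called higher in both clones (0.95 to 1.27 in KO1, 0.89 to 1.17 in KO2), and Atp5f1 in neither (0.22 and 0.28). In the central stalk, which turns inside the head, Atp5e was called in both clones (0.73 and 0.57), Atp5d in KO1 only (0.71 and 0.47) and Atp5c1 in KO2 only (0.32 and 0.49). Neither Atp5d (adjusted p = 0.359) nor Atp5c1 (adjusted p = 0.401) was called when KO2 was set against KO1. Atp5b, the catalytic beta subunit, was not called in either clone (0.49, adjusted p = 0.108, and 0.46, adjusted p = 0.112), although all KO libraries, at 2001 to 3074 CPM, were above the controls at 1825 and 1807. Atp5s (chr12:69724950-69744660) was at 9.11 and 8.94 CPM in control, 6.71, 6.87 and 6.03 in KO1, and 3.46, 3.37, 7.64 and 5.11 in KO2. All KO libraries were below the controls, and it was called lower in KO2 (-0.88, SE 0.35, adjusted p = 0.097) and not in KO1 (-0.47, SE 0.37, adjusted p = 0.395). That call held only without KO2 replicate 3, and it was lost when any other library was left out, with values of -0.90 to -0.74.

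Subunit c of ATP synthase, which forms the rotating ring, is encoded by 3 genes, Atp5g1, Atp5g2 and Atp5g3, that give the same mature protein. Atp5g1 (chr11:96068852-96075670) was at 57.4 and 57.2 CPM in control, 105, 90.3 and 123 in KO1, and 81.0, 89.7, 109 and 77.7 in KO2. Atp5g3 (chr2:73908447-73911326) was at 163 and 167 CPM in control, 254, 236 and 297 in KO1, and 357, 284, 351 and 237 in KO2. Both rose in both clones, Atp5g1 by 0.89 (SE 0.20, adjusted p = 0.0125) and 0.64 (SE 0.19, adjusted p = 0.0364), and Atp5g3 by 0.67 (SE 0.20, adjusted p = 0.04) and 0.89 (SE 0.19, adjusted p = 0.0118). Atp5g2 (chr15:102662864-102672352) was at 38.7 and 38.4 CPM in control, 36.5, 50.02 and 55.03 in KO1, and 26.1, 27.5, 46.3 and 26.9 in KO2. KO1 overlapped the controls, KO2 replicate 3 stood apart from the other 3 KO2 libraries, and Atp5g2 was not called (0.29, adjusted p = 0.493, and -0.28, adjusted p = 0.464). Without control replicate 1, the Atp5g1 and Atp5g3 calls were lost in KO1 (0.90 and 0.66) and in KO2 (0.65 and 0.89). Without control replicate 2, the Atp5g3 call in KO1 (0.69) and both calls in KO2 (0.64 and 0.92) were lost, and without KO1 replicate 3 that of Atp5g3 in KO1 (0.57).

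By counts per kb, Atp5g3 was the main source of the c subunit in every group. Atp5g3 made up 55.7% ± 0.541 of the c-subunit counts per kb in control (SD, n = 2), 56.4% ± 1.39 in KO1 (n = 3) and 65.9% ± 4.13 in KO2 (n = 4). Atp5g1 made up 23.2% ± 0.248, 27.2% ± 1.60 and 23.1% ± 2.48, and Atp5g2 21.1% ± 0.293, 16.4% ± 2.81 and 10.97% ± 2.11. The Atp5g2 share was below both controls in all 7 KO libraries, with a difference of -7.78 percentage points and a two-sided exact permutation p of 0.0278, the smallest that 36 splits allow (0.0857 adjusted over 6 tests). Between the clones, the Atp5g3 share was 9.54 points higher in KO2, in 4 of 4 libraries (exact permutation p = 0.0286, the smallest that 35 splits allow, 0.0857 adjusted). None of the 6 tests passed an adjusted p of 0.05, while 4 of 6 tests passed (adjusted p = 0.0429) when lengths of all exons were used, an alternative chosen after seeing the data. The order of Atp5g1 and Atp5g2 depends on the length used: with the principal transcripts Atp5g1 was above Atp5g2 in control (96.2 and 87.5 CPM per kb), and with all exons it was below (11.7 and 23.0).

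**Figure D4:**
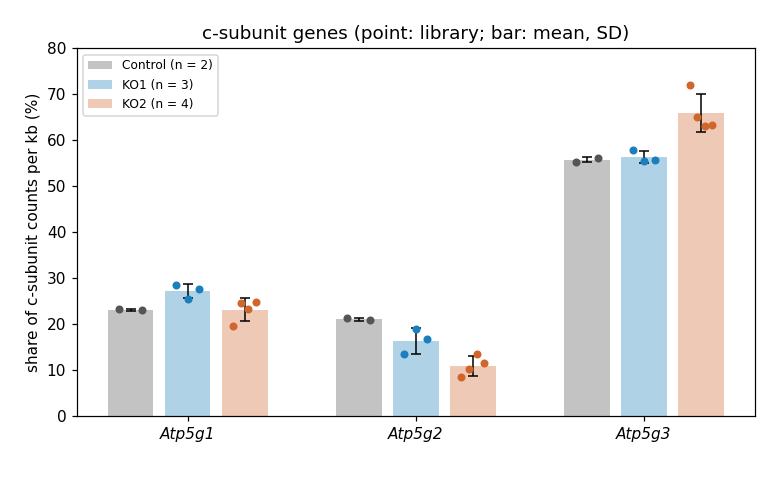
Share of Atp5g1, Atp5g2 and Atp5g3 among the c-subunit genes, in percent of counts per kb, in control, KO1 and KO2; points are libraries, bars the group means and error bars the SD. The Atp5g2 points of the KO libraries all lie below the controls, which average 21.1%, and the Atp5g3 points of KO2 lie above those of control and KO1.

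Set against each other, the clones differed in 7 of the 43 members: 3 were higher in KO2 (6.98%, against 10.2% of all genes) and 4 lower (9.3%, against 9.43%), and 19.6% of all genes differed in either direction. The median log2 fold change of the members was -0.15 in KO2 against KO1, and by complex it was -0.08 in II, -0.23 in III, -0.08 in IV and -0.16 in V (all genes: 0.02). KO2 libraries lay above all KO1 libraries for 3 members (all genes: 11.9%) and below for 7 (all genes: 12.6%). The members higher in KO2 were Sdhb (0.60, SE 0.15, adjusted p = 0.0316), Uqcrh (0.50, SE 0.14, adjusted p = 0.0477) and Cox4i1 (0.39, SE 0.12, adjusted p = 0.0621). Lower in KO2 were Uqcrc2 (-1.27, SE 0.26, adjusted p = 0.0193), Cox6a2 (-3.56, SE 0.92, adjusted p = 0.0378), Atp5a1 (-0.50, SE 0.15, adjusted p = 0.0564) and Cyc1 (-0.68, SE 0.22, adjusted p = 0.0747). Uqcrc2 kept the call when any one of the 9 libraries was left out (-1.49 to -1.10). Sdhb (0.59 and 0.52), Uqcrh (0.45 and 0.46), Cox4i1 (0.36 and 0.36) and Cox6a2 (-2.89 and -3.56) lost it without KO1 replicate 1 or 2, and Cox4i1 also without control replicate 2 (0.39). Atp5a1 lost it without any of the KO1 libraries or without KO2 replicate 1 or 4 (-0.58 to -0.41), and Cyc1 without any of the control or KO1 libraries or KO2 replicate 1 or 2 (-0.75 to -0.55).

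**Figure D5:**
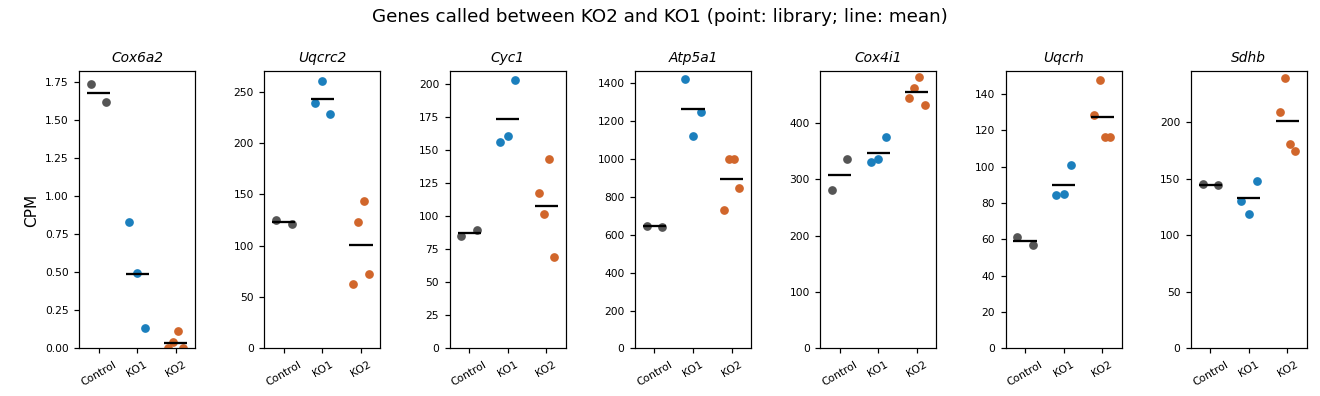
CPM of the members that differed between KO2 and KO1, in control, KO1 and KO2; points are libraries and lines the group means, and each gene has its own axis from 0. Uqcrc2 lies at 228 to 260 CPM in KO1 and at 62.6 to 144 in KO2, and Sdhb lies at 119 to 148 and at 175 to 239.

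With both clones in a single group (n = 7), 25 members were called higher than in control (all genes: 11.9%) and 0 lower (all genes: 10.7%, and 22.6% in either direction), with a median log2 fold change of 0.69. All 7 KO libraries were above both controls for 28 members (all genes: 16.9%) and below both for 3 (all genes: 17.6%). Without control replicate 1 the number called higher was 4, and without control replicate 2 it was 6 (all genes, either direction: 2.95% and 3.61%). The 4 members called higher whichever library was left out were Uqcr11, Cox6c, Atp5j and Atp5k. Within KO1, 10 members kept the call in all 9 such fits: Uqcr11, Uqcrc1, Cox6b1, Cox6c, Atp5a1, Atp5e, Atp5j, Atp5j2, Atp5k and Atp5o. Within KO2 there were 9: Uqcr11, Uqcrc1, Uqcrh, Cox6b1, Cox6c, Atp5j, Atp5j2 and Atp5k, all higher, and Cox6a2, lower.

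Levels per length spread widely between members. In control cells, Atp5b had the highest level, 948 CPM per kb, followed by Cox4i1 at 413, Cox8a at 386, Cox6a1 at 280 and Atp5a1 at 261. At the low end of the tested members were Cox7a1 at 0.639, Cox6a2 at 2.46, Atp5s at 6.08 and Atp5l at 12.5 CPM per kb. Within complex II, Sdhb had 127 CPM per kb in control, Sdhd 80.9, Sdha 67.0 and Sdhc 26.1. Reads that map to several places were not counted, so genes with near-identical pseudogene copies, which are common in these families, may be undercounted, and their levels are uncertain.

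Partners of the members that have other symbols were also read. Of the subunits encoded in mitochondrial DNA, mt-Cytb of complex III was at 2638 and 2647 CPM in control, 2162 to 2940 in KO1 and 2600 to 3169 in KO2, and its log2 fold changes were 0.01 and 0.09, neither called. The complex IV gene mt-Co1 was at 3821 and 3372 CPM in control, 2375 to 2611 in KO1 and 2908 to 5174 in KO2. It was not called against control (-0.51 and 0.06) and was called higher in KO2 than in KO1 (0.57, SE 0.19, adjusted p = 0.0798). The other mitochondrial genes, mt-Co2, mt-Co3, mt-Atp6 and mt-Atp8, had 0 or 1 count in every library of these files. Reads that map to several places were not counted, so mitochondrial genes may be undercounted and their levels are uncertain. Whether such reads account for the low counts was not tested. Cycs, the cytochrome c between complexes III and IV, was called higher in both clones (0.70 and 1.06), as was Usmg5, a complex V subunit under another symbol (1.00 and 1.11). Atpif1, the inhibitor of ATP synthase, was called lower in KO1 (-0.46) and not in KO2.

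Assembly factors help to build the complexes without staying in them. Of the complex IV factors, 6 of 20 tested were called higher and 1 lower in KO1, and 5 and 1 in KO2 (all genes: 15.9% higher and 15.7% lower in KO1, 16.5% and 15.0% in KO2). Coa3 (1.77 and 0.74) and Coa6 (1.10 and 1.01) were higher, and Surf1 was lower (-0.61 and -0.80). For complex II, 0 of 4 factors were called in either clone, for complex III 1 of 6 (Uqcc2, 1.07 and 1.12), near the share over all genes, and for complex V 0 of 3. Tricarboxylic acid cycle enzymes, which feed complex II and supply electrons to the chain, were called higher for 9 of 13 in KO1 (all genes: 15.9%) and 4 in KO2 (all genes: 16.5%), with Dld called lower in both (-0.68 and -0.63). Mdh2, malate dehydrogenase, was among the higher (1.17 and 0.90). Of the genes for outer membrane channels and mitochondrial protein import, 7 of 14 were called higher in KO1 and 6 in KO2, with 0 lower. The same shares over all genes apply, and Timm50 was among the higher (1.35 and 1.04). Among 14 regulators of respiratory genes, 3 were called higher and 3 lower in KO1, and 1 and 2 in KO2, which is near the shares over all genes. Esrra, a nuclear receptor of mitochondrial genes, was higher in both (0.54 and 0.66), and Myc was lower in both (-0.84 and -1.39). Ppargc1a, the coactivator PGC-1alpha, had 0 counts in both controls, 123, 19 and 5 in KO1, and 11, 7, 0 and 0 in KO2, with a call in KO1. Factors whose motifs are read below were also on this list. Nrf1 was at 64.4 and 65.4 CPM in control, 65.3 to 75.6 in KO1 and 57.7 to 70.8 in KO2. In the same order, Gabpa was at 88.8 and 81.1, 93.8 to 112 and 62.9 to 106. Gabpb1 was at 51.1 and 46.2, 42.0 to 46.6 and 33.8 to 47.6, and Gabpb2 at 216 and 266, 117 to 150 and 126 to 222. Yy1 was at 144 and 139, 90.0 to 109 and 114 to 126. Their part in the members' changes was not tested.

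Promoter sequences were found for 34 of the 48 members. The NRF1 motif was present in 10 of them (29.4%), against 7.13% of 17457 promoters of other coding genes and 5.19% of all 27025 promoters in the RefSeq table. The ETS motif CCGGAAG was in 12 (35.3%), against 12.9% of other coding genes and 9.93% of all. The Sp1 motif GGGCGG was in 35.3%, against 49.3% of other coding genes and 38.2% of all. CCAAT was in 55.9% (other coding genes: 42.3%), the E-box CACGTG in 8.82% (8.91%), the YY1 motif AAGATGGC in 5.88% (3.56%) and the ERR motif TCAAGGTCA in 5.88% (0.367%), with both strands read each time. Members with and without an NRF1 match had median log2 fold changes of 0.86 and 0.73 in KO1 and 0.79 and 0.64 in KO2 (10 and 21 members tested). With and without an ETS match the medians were 0.86 and 0.71 in KO1 and 0.86 and 0.53 in KO2 (12 and 19). These are descriptions of letters in a window. Of the promoters printed above, Atp5k falls in both groups with a match. Uqcr11 falls in the group with an ETS match and in the group without an NRF1 match. It had the highest value of the latter group (1.67 in KO1 and 1.65 in KO2).

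MaTAR25 binding to chromatin was measured by ChIRP-seq, in which tiled oligonucleotides pull down the RNA with the DNA near it. In the list from the pooled 4T1 replicates, 20 of the 48 members (41.7%) had a peak within 10 kb of the gene start, as did 52.6% of 12546 protein-coding genes tested. Within 1 kb the shares were 12.5% of members and 7.72% of coding genes, and with any overlap of the gene body 25% and 57.4%. The 48 members include those that were not tested, while the coding genes were all tested, so the shares are not like for like. Of the members not tested, Cox8b and Cox8c had a peak within 1 kb, and Cox4i2 had one within 10 kb. In the list from MMTV-Neu-NDL mammary tumor cells, used as an alternative chosen after seeing the data, the shares within 10 kb were 35.4% and 50.2%. Replicates were pooled before peaks were called, so these shares carry no test.

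Several members overlap another gene, and the strand setting of the counting was not stated. It is therefore not known whether reads in an overlap were counted to the member, to the other gene or to neither. The overlapping genes with most counts over all libraries were Vps13b for Cox6c (39080), Gabpa for Atp5j (32332), Emc8 for Cox4i1 (30158), Wdr77 for Atp5f1 (21139) and Haus1 for Atp5a1 (8693). For Uqcrc2 and Cox6a2 the partners Pdzd9 and Itgad had 54 and 33 counts in all.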

How the data were processed

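Per the study's methods, the authors aligned single-end reads with STAR (GRCm38), then used HTSeq and GENCODE vM5 to count reads per gene, and they deposited whole-number counts for 9 libraries. Rows that name no gene (33.9% to 37.0% of each file) were left out, and the file of KO2 replicate 2, which lists each gene 3 times with the same counts, was used once. The authors deposited ChIRP-seq peaks with a HOMER peak score, called over pooled replicates at 50-fold or more over the Ppib pulldown. The score served only as a filter.

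Counts were filtered (filterByExpr), scaled by TMM and fitted with edgeR 4.0.16 (R 4.3.3) by quasi-likelihood in 3 groups, or 2 for both clones together, with Benjamini-Hochberg adjustment and the threshold of 0.1 that the study used. The pooled spread had a coefficient of variation of 32.5%. The scripts were tested on simulated data. CPM use TMM library sizes, and standard errors come from the F statistic. Shares of c-subunit genes were tested by two-sided exact permutation. Positions and lengths are from GENCODE vM21 and promoters from RefSeq. Members and lists were chosen with earlier results of these data known. Members named with full values were, per complex, the largest and smallest changes against control, all that differed between clones or were called lower, the isoform sets and those not tested. Others were named after their values were seen. Alternatives were DESeq2 1.42.0, RLE size factors, other count filters, a threshold of 0.05, 2-group fits, a replicate block, length centring, other lengths and peak rules, and each library left out. Paralog and pseudogene reads that map to several places were not counted.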

Additional observations from a re-analysis of the deposited data

Results flagged for a closer look

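In KO2, 4 of 51 groups of 4 libraries (the CPM of a member, a c-subunit share or a summed level) held a library far from the other 3, by the gap to its neighbour over the whole range, judged by Dixon's test. Chance alone gives this in about 1 in 20 groups. For Uqcrq the ratio was 0.873, with 88.6, 79.9, 148 and 85.2 CPM, and for Cox7a1 it was 0.970, with 4, 3, 27 and 6 counts. For Atp5g2 it was 0.931, with 26.1, 27.5, 46.3 and 26.9 CPM. In these 3 genes KO2 replicate 3 was the high library, in which other genes of their chromosomes had medians of 0.27 (chromosome 11, Uqcrq), 0.02 (chromosome 7, Cox7a1) and 0.14 (chromosome 15, Atp5g2) from the mean of KO2 on the log2 scale. For Cox8a the ratio was 0.850, with 339, 451, 335 and 353 CPM, and replicate 2 was high.

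By edgeR's quasi-likelihood test of KO2 against KO1, 7 of 43 members (16.3%) differed between the clones, where 19.6% of all genes did. The log2 fold change was 0.60 for Sdhb, -0.68 for Cyc1, -1.27 for Uqcrc2, 0.50 for Uqcrh, 0.39 for Cox4i1, -3.56 for Cox6a2 and -0.50 for Atp5a1. The cause of these differences was not tested.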

How the results depend on the processing

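With DESeq2 or RLE size factors, the numbers of members called and the calls of the named genes did not change by more than the limits set. Medians were compared with RLE size factors only, and also stayed within the limits. The c-subunit shares and the peaks were not part of these fits. Leaving out 1 library gave 10 to 33 members called higher and 0 to 1 lower in KO1, 9 to 28 and 1 to 4 in KO2, 4 to 28 and 0 to 1 for both clones, and 0 to 3 higher and 1 to 9 lower for KO2 against KO1. In the same fits 9.46% to 37.6% of all genes were called in KO1, 8.72% to 35.7% in KO2, 2.95% to 26.4% for both clones and 5.79% to 27.5% for KO2 against KO1. Medians were 0.86 to 0.98 (complex III) and 0.78 to 0.94 (complex IV) in KO1 and -0.22 to 0.027 for complex II in KO2 against KO1. In fits of only the 2 groups, 3 members were called lower in KO1, 1 in KO2 and 1 in KO2 against KO1, where 54.1%, 24.1% and 13.6% of all genes were called in either direction. In KO2, 1 member was called lower without a filter, with at least 10 counts in every library, with the replicate block, or at an adjusted p of 0.05, where 2 were lower in KO2 against KO1. With 10 counts in every library the complex III median in KO1 was 0.95, and without a filter that of complex IV was 0.78. Centred on the length trend, the KO1 medians were 0.64 (all), 0.88 (III) and 0.69 (IV), and the KO2 medians 0.43 (all) and 0.49 (IV). The number of members with a peak was 6 within 1 kb (12.5%, coding genes 7.72%), 45 within 50 kb (93.8%, coding genes 96.5%), 2 at a score of at least 100 (4.17%, coding genes 16.9%), 12 by overlap with the gene (25%, coding genes 57.4%) and 2 for peaks shared by all 3 lists of 4T1 cells (4.17%, coding genes 12.1%). These peak counts are over all 48 members, and Cox8b and Cox8c, which were not tested, were among the 6 within 1 kb. With the length of all exons, differences in share that passed were -2.36 (Atp5g1, KO2 minus KO1), -7.69 (Atp5g2, KO minus control), -5.95 (Atp5g2, KO2 minus KO1) and 8.31 points (Atp5g3, KO2 minus KO1).

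Libraries with the same replicate number did not deviate together over all genes (correlations of -0.15 to 0.04), and the main fit did not pair them. Correlations of deviations from means of so few libraries cannot exclude a preparation shared by number. With the replicate block, 1 member was called higher and 2 lower in KO2 against KO1 (all genes, either direction: 11.6%, from 19.6%), the KO1 medians were 0.71 (all), 0.86 (III) and 0.80 (IV), the KO2 medians 0.32 (II), 0.56 (III), 0.63 (IV) and 0.58 (V), and the median of complex II in KO2 against KO1 was -0.25. The cause of these changes was not tested. The 5 restricted forms of complex IV that were not tested had at most 7 counts in a library. Every call against control rests on the same 2 libraries.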

Other observations

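The 5 members on chromosome 9 all moved up when KO2 replicate 3 was left out of the comparison of KO2 with control. That library had the lowest CPM of the KO2 libraries for each of them, so the direction of the move was given in advance. Sdhd went from 0.39 to 0.54 (adjusted p = 0.239 to 0.0294), Cox5a from 0.46 to 0.59 (0.155 to 0.0256), Cox7a2 from 0.49 to 0.61 (0.17 to 0.0771), Uqcrc1 from 0.75 to 0.82 and Atp5l from -0.28 to -0.22. The first 3 were then called by edgeR's quasi-likelihood test. In that fit 35.7% of all genes were called in either direction, against 31.4% with all libraries. This setting was one of the planned leave-one-out fits, and the reading by chromosome was made after seeing the data.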
